A study of Oryctolagus cuniculus with 24 samples.

Results

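The S100 alarmins, serum amyloid A and antimicrobial proteins are soluble defence proteins of myeloid and epithelial cells. Of this group, 6 of the 28871 genes and identifiers on the rabbit array were described: S100A8, MRP-8, S100A9, SAA1 (named LOC100009168 on the array), DEFB1 and BPI. The names were picked with earlier results of these data known, so that their shares of called genes are a description. Every probe carrying one of these names was used, which gave 15 of the 42089 different probes. MRP-8 is an older name of S100A8, so that the 6 names stand for 5 genes.

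Peripheral blood mononuclear cells (PBMCs), the lymphocytes and monocytes of the blood, were isolated on a ficoll gradient, which removes most neutrophils, and came from 4 New Zealand White rabbits, all adult females, which the labels call 1, 2, 4 and 5. Cells of each rabbit were cultured without stimulus (mock), with 1 µg/mL of the bacterial lipopolysaccharide LPS, or with PMA at 10 ng/mL together with ionomycin at 1 µg/mL, a phorbol ester and a calcium ionophore that activate lymphocytes without an antigen. Cultures were stopped after 4 hours (T4) or 24 hours (T24), which gave 6 groups of 4 cultures. Each of the 24 one-colour Agilent arrays held Cy3-labelled RNA from 1 culture of 1 rabbit.

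S100A8 and S100A9 form the heterodimer calprotectin, a calcium and zinc binding protein abundant in neutrophils and monocytes that acts on TLR4 and on the receptor AGER when it is released. Serum amyloid A is an acute phase protein made mainly by the liver during inflammation, and it signals through FPR2 and Toll-like receptors. The defensin DEFB1 is a small cationic peptide best known from epithelia and also made by monocytes. BPI (bactericidal/permeability-increasing protein) is stored in neutrophil granules and binds LPS of Gram-negative bacteria.

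The probe sequences of the S100 genes are given first, since they decide which of the 6 names are independent measurements. MRP-8 was measured by 3 probes that start 1 base apart, and 2 of the 7 S100A8 probes continue the same series. These 5 probes together cover 64 bases. The other 5 S100A8 probes form a second series of 64 bases just downstream. In the following probes, written 5′ to 3′ as 60 bases each, capitals mark the 20 bases that both series share.
MRP-8, chr13:39004906-39004964: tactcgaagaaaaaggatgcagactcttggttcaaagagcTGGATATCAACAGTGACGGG
S100A8, chr13:39004945-39005004: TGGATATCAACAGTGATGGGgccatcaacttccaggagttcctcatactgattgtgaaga

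The positions are those of the array files, on the oryCun2 build. In the shared bases both sequences differ at 1 position, counted from 1 at the 5′ end of the MRP-8 probe (C57T, the base of the MRP-8 probe first). An S100A8 probe of the first series shares 57 bases with that MRP-8 probe, shown in capitals.
S100A8, chr13:39004760-39004960: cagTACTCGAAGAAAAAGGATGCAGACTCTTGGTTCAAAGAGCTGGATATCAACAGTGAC

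Over the 24 arrays the mean log2 levels of the first and the second series had a Pearson r of 0.997. Values of S100A8 and MRP-8 are therefore repeat readings of the same transcript, and each count over the 6 names includes both.

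S100A9 was measured by 2 probes that lie on opposite strands. Capitals mark the 56 bases over which each is the reverse complement of the other, the first having the strand of the mRNA.
S100A9, mRNA strand, chr13:39032371-39033712: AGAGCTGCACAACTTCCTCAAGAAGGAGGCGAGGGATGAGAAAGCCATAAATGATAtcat
S100A9, opposite strand, chr13:39032375-39033716: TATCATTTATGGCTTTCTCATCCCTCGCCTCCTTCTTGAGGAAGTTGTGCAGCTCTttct

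DEFB1 and BPI had 1 probe each, shown whole because each is the only probe here that carries the name of its gene. The DEFB1 probe was spotted 3 times per array, has no position in the files, and was named through the study's own list of immune genes.
DEFB1: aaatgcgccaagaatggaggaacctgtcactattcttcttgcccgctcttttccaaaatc
BPI, chr4:2039207-2039895: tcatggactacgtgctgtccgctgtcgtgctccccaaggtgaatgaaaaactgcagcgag

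SAA1 also had 1 probe, without a position in the files. Every probe of S100A9, SAA1, DEFB1 and BPI was well above the local background on all 24 arrays. The 5 downstream S100A8 probes were so too. The 5 probes of the first series passed on every array of 5 groups, and after PMA-Ionomycin at T24 on 2 or 3 of 4 arrays.

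Levels are log2 median signals of the spots relative to the median of the array, so that 0 is the brightness of the middle spot, and a log2 fold change (log2 FC) is the difference of 2 mean levels. A gene was called differentially expressed at an adjusted p under 0.05 in limma, fitted to all 28756 genes with values on every array and adjusted over all of them by the Benjamini-Hochberg method. Brightness differs between probes of different genes, and levels were compared only within a gene. In whole PBMC cultures fewer cells of a type and less RNA per cell cannot be told apart.

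At T24 LPS raised SAA1 and S100A9 and lowered DEFB1, while PMA-Ionomycin lowered all 6 names, S100A8 and its second reading MRP-8 most. At T4 no member was called after LPS, and PMA-Ionomycin lowered S100A8, MRP-8 and SAA1. After LPS, 0 of 6 members were called at T4 by limma (0 also at an unadjusted p under 0.05), beside 1.03% of all genes, and 3 of 6 at T24, beside 1.22%. These were 2 higher (0.633% of all genes) and 1 lower (0.584%). With the rabbit as a block, 1 of 6 was called at T4, beside 4.27% of all genes, and 6 of 6 at T24, beside 2.59%. After PMA-Ionomycin, 3 of 6 were called at T4, beside 22.9% of all genes, and 6 of 6 at T24, beside 33.7%. All of these were lower, as were 9.36% of all genes at T4 and 11.5% at T24.

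**Figure D1:**
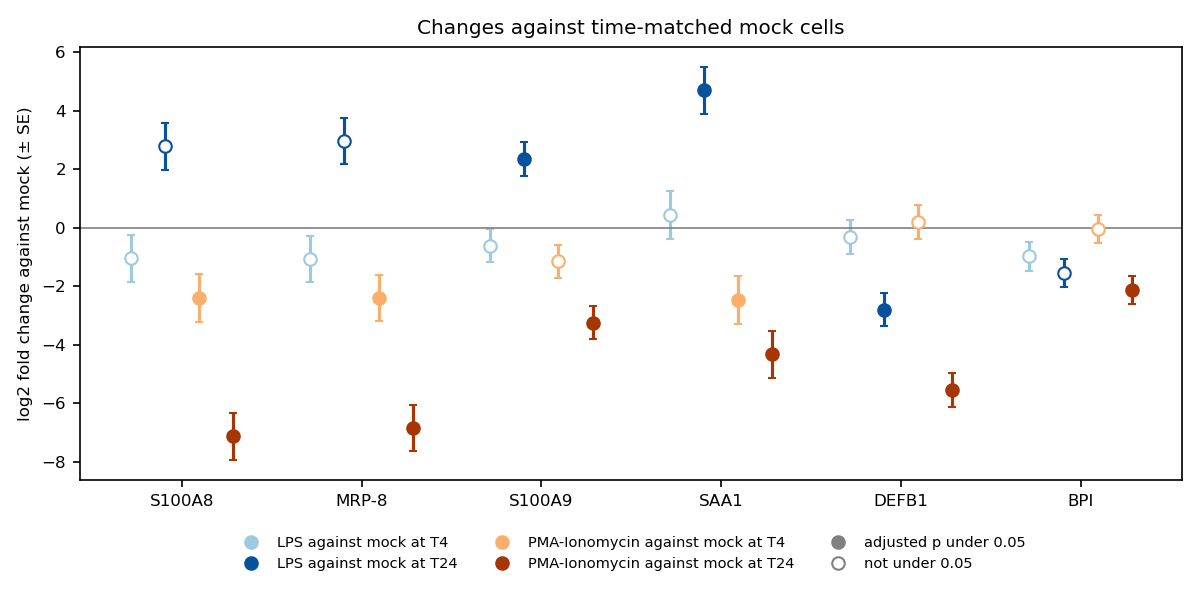
Log2 FC of each gene against mock cells of the same time (points, log2 units, vertical axis) with its standard error (bars), filled where the adjusted p is under 0.05. At T24 SAA1 lies at 4.70 after LPS and S100A8 at -7.14 after PMA-Ionomycin.

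The median log2 FC of the 6 members was 2.57 after LPS and -4.94 after PMA-Ionomycin at T24, where the median of all genes was -0.03 and 0.03. At T4 it was -0.80 and -1.78, with 0.06 and 0.05 for all genes. These medians include S100A8 under both of its names.

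**Figure D2:**
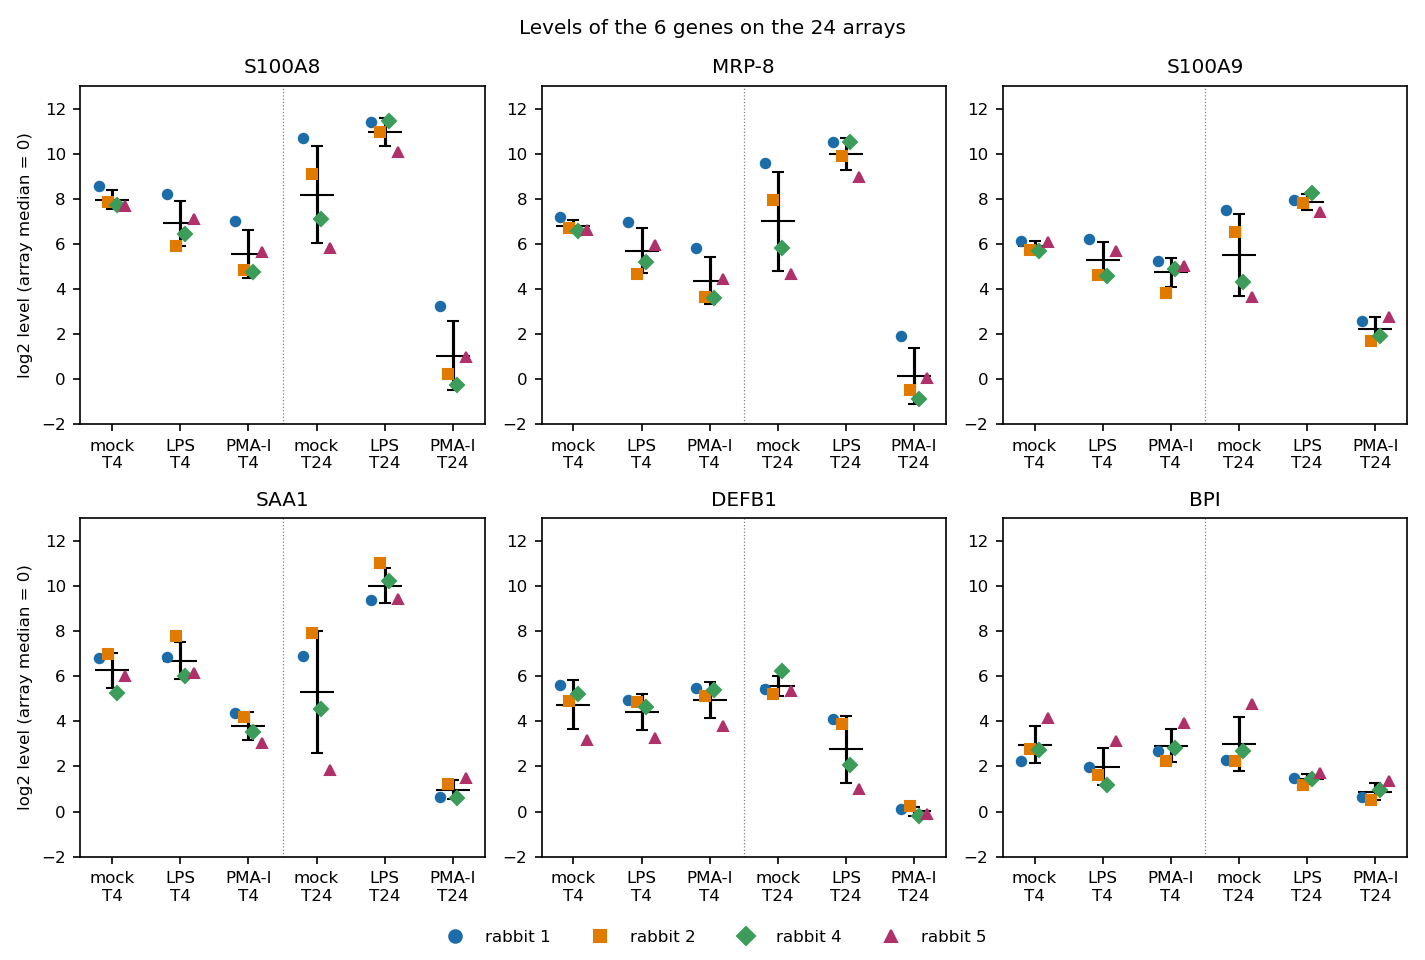
Log2 level relative to the array median (vertical axis) of each gene on the 24 arrays, by group. Symbols are rabbits, horizontal bars are means and vertical bars SDs of 4 rabbits. PMA-I is PMA-Ionomycin. The mean after PMA-Ionomycin at T24 is the lowest of each panel, and mock cells of T24 spread most for S100A8, MRP-8, S100A9 and SAA1.

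S100A8, the smaller subunit of calprotectin, lay far above the array median in unstimulated cells and had its lowest levels after PMA-Ionomycin. In mock cells at T4 its log2 level was 8.57, 7.84, 7.73 and 7.70 in rabbits 1, 2, 4 and 5. After PMA-Ionomycin it was 7.02, 4.83, 4.75 and 5.63 at T4, and 3.23, 0.23, -0.25 and 0.97 at T24. The mock and the PMA-Ionomycin levels did not overlap at either time. At T4 the log2 FC was -2.40 (SE 0.81, adjusted p = 0.033 by limma), a 5.28-fold lower signal, and at T24 it was -7.14 (SE 0.81, adjusted p = 1.56e-07), a 141-fold lower signal. All 4 rabbits were lower at both times, with differences of -8.86 to -4.86 at T24.

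The T4 call of S100A8 was lost without rabbit 2 (log2 FC -2.199, adjusted p = 0.173), without rabbit 4 (-2.21, adjusted p = 0.168) and without rabbit 5 (-2.51, adjusted p = 0.0552). It was also lost with the slide as a block (adjusted p = 0.0541), with robust eBayes and a trend (0.0519) and when a fold of 2 was required. The T24 call held in 18 of 18 alternatives, with a log2 FC of -7.89 without rabbit 5. The median signal was not corrected for background, and with the background-subtracted signal the T24 fold was 287. After PMA-Ionomycin at T24, 2 of the 7 S100A8 probes were well above background on 2 or 3 of 4 arrays.

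After LPS, S100A8 reached its highest levels. At T24 the 4 rabbits had 11.39, 10.96, 11.45 and 10.07, against 10.702, 9.09, 7.10 and 5.83 in mock cells. The LPS levels lay close together and the mock levels far apart, so that rabbit 1 had a mock level above the LPS level of rabbit 5. The log2 FC was 2.79 (SE 0.81, adjusted p = 0.104), which did not pass the threshold, and all 4 rabbits were higher, by 0.69, 1.87, 4.35 and 4.24. The rabbit numbers name the same animals, and with the rabbit as a block the gene passed (adjusted p = 0.00684), as did the other members. It also passed without rabbit 1 (log2 FC 3.49, adjusted p = 0.00577). At T4 LPS levels of 8.21, 5.91, 6.43 and 7.12 gave a log2 FC of -1.04 (adjusted p = 0.604), with 4 of 4 rabbits lower.

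MRP-8, the second set of probes for the same transcript, gave a log2 FC of 2.97 (adjusted p = 0.0636) after LPS at T24, and 0.00362 as the adjusted p with the rabbit as a block. For PMA-Ionomycin its log2 FC was -2.40 (adjusted p = 0.0275) at T4 and -6.85 (adjusted p = 1.81e-07) at T24, where its probes were well above background on 2 or 3 of 4 arrays. Without rabbit 5 the T24 value was -7.60. The T4 call was lost without rabbit 2 (-2.17, adjusted p = 0.162) and without rabbit 4 (-2.22, adjusted p = 0.152). The 7 S100A8 probes taken singly had log2 FC of -7.35 to -6.65 in the last comparison and the 3 MRP-8 probes of -6.94 to -6.72.

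S100A9, the larger subunit of calprotectin, rose after LPS and fell after PMA-Ionomycin at T24. Averaged over its 2 probes, its level after LPS at T24 was 7.95, 7.80, 8.23 and 7.40 in rabbits 1, 2, 4 and 5, against 7.52, 6.50, 4.29 and 3.65 in mock cells. All 4 rabbits were higher after LPS, yet the mock level of rabbit 1 lay above the LPS level of rabbit 5. The log2 FC was 2.35 (SE 0.57, adjusted p = 0.042), a 5.10-fold rise, and 2.99 without rabbit 1. The call was lost without rabbit 2 (adjusted p = 0.136), rabbit 4 (0.57) or rabbit 5 (0.123) and in a fit to the 8 arrays compared alone (0.322). It was also lost with robust eBayes and a trend (0.0627), with the slide as a block (0.0514) and when a fold of 2 was required. With the rabbit as a block the call held (0.0133).

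After PMA-Ionomycin, S100A9 had a log2 FC of -1.15 (adjusted p = 0.181) at T4 and fell by 3.25 on the log2 scale at T24 (adjusted p = 7.04e-05), and by 4.04 without rabbit 5. Its 4 levels at T24 were 2.58, 1.70, 1.91 and 2.78, all below those of mock cells.

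The average of S100A9 joins 2 probes with changes of different size. The mRNA-strand probe had 11.43, 11.24, 11.31 and 10.45 after LPS at T24, 10.30, 8.54, 5.44 and 4.59 in mock cells, and 2.41, 0.47, 0.58 and 1.81 after PMA-Ionomycin. The opposite-strand probe stayed between 2.71 and 5.15 on all 24 arrays. With the mRNA-strand probe alone, a choice made after its values were seen, S100A9 was 14.8-fold higher after LPS (log2 FC 3.89, SE 0.85, adjusted p = 0.0182) and 59.8-fold lower after PMA-Ionomycin at T24 (log2 FC -5.90, adjusted p = 4.85e-06). The opposite-strand probe had log2 FC of 0.82 (adjusted p = 0.338 among single probes) and -0.60 (0.214). Between both stimuli at T24 it was lower after PMA-Ionomycin (-1.41, adjusted p = 0.00187), in the direction of the mRNA strand. Each strand passed background, and over the arrays their levels had a Pearson r of 0.774. Whether the opposite-strand signal comes from an antisense transcript was not tested.

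**Figure D3:**
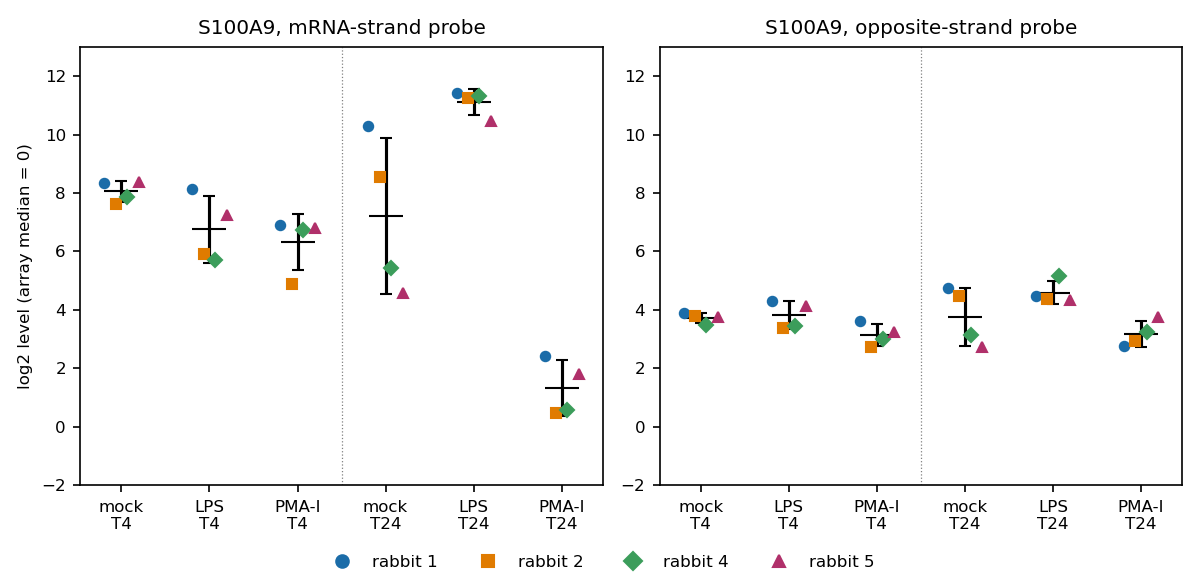
Log2 level relative to the array median (vertical axis) of both S100A9 probes, by group. Symbols are rabbits, and bars are means and SDs of 4 rabbits. The mRNA-strand probe spans 0.47 to 11.43, and the opposite-strand probe 2.71 to 5.15.

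S100A12 (calgranulin C, LOC100008703 on the array) is a close relative of both that signals through AGER, and its gene lies between them on chromosome 13. It is not one of the 6 members. In mock cells at T24 it had 10.40, 8.35, 5.89 and 3.77 in rabbits 1, 2, 4 and 5, and after LPS 11.34, 10.96, 11.52 and 10.46. These groups did not overlap, but the mock rabbits lay far apart, and the log2 FC of 3.97 (SE 1.20) had an adjusted p of 0.125. It fell by 5.31 after PMA-Ionomycin at T24 (adjusted p = 0.00102), with 4 of 4 rabbits lower. A further 3 probes, unnamed in the files and shifted along this site, gave log2 FC of 3.95 to 3.96 after LPS and -5.30 to -5.24 after PMA-Ionomycin at T24.

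Other genes of the S100 family were counted next. A list of 18 others had 10 measured genes. LPS at T24 lowered 1 of them and raised none, beside 0.584% of all genes lower and 0.633% higher. PMA-Ionomycin at T24 lowered 6 and raised none, beside 11.5% of all genes lower. The list had median log2 FC of 0.04 and -0.60. Apart from S100A12, the largest falls after PMA-Ionomycin at T24 were those of S100A11 (log2 FC -1.16, adjusted p = 0.0015) and S100A13 (-0.98, adjusted p = 0.000326). S100A13, which takes part in the release of proteins without a signal peptide, was also the gene that fell after LPS at T24 (-0.88, adjusted p = 0.0224). At T4 no gene of the list was called after LPS, beside 1.03% of all genes. PMA-Ionomycin lowered S100A13 (-0.86) and S100A5 (-0.58) there and raised S100P (0.57), beside 22.9% of all genes called.

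SAA1, the acute phase serum amyloid A, showed the largest rise of the 6 names after LPS. At T24 its log2 level was 9.37, 11.01, 10.24 and 9.40 after LPS in rabbits 1, 2, 4 and 5, and 6.91, 7.92, 4.55 and 1.86 in mock cells. Every LPS level was above every mock level. The log2 FC was 4.70 (SE 0.81, adjusted p = 0.00234 by limma), a 26.0-fold rise, and the 4 rabbits rose by 2.47, 3.09, 5.69 and 7.55. The log2 FC was 3.75 without rabbit 5 (adjusted p = 0.00482) and 5.44 without rabbit 1 (0.0107). The call was lost without rabbit 4 (log2 FC 4.37, adjusted p = 0.131) and in a fit to the 8 arrays compared alone (adjusted p = 0.202). At T4 LPS and mock levels overlapped, with a log2 FC of 0.43 (adjusted p = 0.837).

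PMA-Ionomycin lowered SAA1 at both times. At T4 its levels were 4.38, 4.19, 3.51 and 3.02, against 6.79, 6.97, 5.25 and 6.01 in mock cells, and the groups did not overlap. The log2 FC of -2.48 (SE 0.81, adjusted p = 0.0284) was lost without rabbit 1 (-2.50, adjusted p = 0.101), rabbit 2 (-2.38, adjusted p = 0.0559) or rabbit 4 (-2.72, adjusted p = 0.0959). At T24 the levels were 0.63, 1.20, 0.60 and 1.48 and the log2 FC -4.33 (adjusted p = 0.000141), a 20.2-fold lower signal. The log2 FC was -5.65 without rabbit 5, -3.68 without rabbit 1 and -3.54 without rabbit 2, and the call held. All rabbits were lower, with a difference of -0.38 in rabbit 5, whose mock level was the lowest.

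A list of other acute phase proteins had 16 measured genes, 3 of them never above background. After LPS at T24, 1 rose, beside 0.633% of all genes, and none fell. This gene was ORM1, the carrier protein orosomucoid, with a log2 FC of 3.0 (adjusted p = 0.00021) and levels of 6.28 to 7.61 against 3.43 to 4.75 in mock cells. SAA3, a further serum amyloid gene, had a log2 FC of -0.18 (adjusted p = 0.964) and LBP, the plasma protein that hands LPS to CD14, of 0.001 (adjusted p = 0.9998). The mean level of LBP was -1.12 in both groups, below the array median, so that its signal was weak. After PMA-Ionomycin at T24, 5 of 16 fell and 1 rose, beside 33.7% of all genes called and 11.5% lower. The largest falls were those of ORM1 (-4.40, adjusted p = 9.78e-09), the haemoglobin-binding protein HP (-2.31, adjusted p = 2.37e-06) and CP, the copper carrier ceruloplasmin (-2.26, adjusted p = 0.0121), and SAA3 fell too (-1.84, adjusted p = 6.14e-05). At T4 PMA-Ionomycin lowered the pattern recognition protein PTX3 (-1.81) and HP (-1.01), and no gene of the list was called after LPS. SAA3 had a log2 FC of 0.90 there (adjusted p = 0.177), with 4.15 to 5.92 against 3.63 to 4.03 in mock cells. The list's median log2 FC lay between -0.23 and 0.01 in the 4 comparisons.

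DEFB1 was lowered by both stimuli at T24 and by neither at T4. Its log2 level in mock cells at T24 was 5.44, 5.23, 6.24 and 5.33 in rabbits 1, 2, 4 and 5. After LPS it was 4.10, 3.89, 2.05 and 0.99, and after PMA-Ionomycin 0.10, 0.25, -0.19 and -0.10. The 3 groups did not overlap. The log2 FC after LPS was -2.80 (SE 0.58, adjusted p = 0.0112), a 6.98-fold lower signal, with differences of -4.34 to -1.34. The call was lost without rabbit 2 (log2 FC -3.29, adjusted p = 0.0696), without rabbit 4 (-2.34, adjusted p = 0.357) and in a fit to the 8 arrays compared alone (adjusted p = 0.174).

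The log2 FC of DEFB1 after PMA-Ionomycin at T24 was -5.54 (SE 0.58, adjusted p = 4.18e-08), a 46.7-fold lower signal, and held in 18 of 18 alternatives. With the background-subtracted signal it was 104-fold lower. At T4 the levels of all 12 arrays lay between 3.18 and 5.62, rabbit 5 being the lowest of each group, and the log2 FC were -0.32 after LPS (adjusted p = 0.833) and 0.20 after PMA-Ionomycin (adjusted p = 0.909).

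BPI was lowered by PMA-Ionomycin at T24, and rabbit 5 had its highest level in every group. In mock cells at T24 it had 2.28, 2.22, 2.70 and 4.77, after LPS 1.47, 1.19, 1.43 and 1.71, and after PMA-Ionomycin 0.64, 0.52, 0.95 and 1.36. Both stimulated groups lay below all mock levels. The log2 FC after PMA-Ionomycin was -2.12 (SE 0.49, adjusted p = 0.00126). After LPS it was -1.54 (SE 0.49, adjusted p = 0.156), and every rabbit was lower (-3.06 to -0.82). This change passed with the rabbit as a block (adjusted p = 0.002) and without rabbit 5 (log2 FC -1.04, adjusted p = 0.0149).

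At T4 BPI had a log2 FC of -0.98 after LPS (adjusted p = 0.384, and 0.0444 with the rabbit as a block). After PMA-Ionomycin at T4 it was -0.05 (adjusted p = 0.979), with 2 of 4 rabbits lower.

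Among the 4 comparisons with mock, other antimicrobial genes were called most often after PMA-Ionomycin at T24, as were all genes. Of 18 measured genes of the list, 1 was never above background. After LPS at T24, 2 rose and 3 fell, beside 0.633% and 0.584% of all genes. After PMA-Ionomycin at T24, 2 rose and 10 fell, beside 33.7% of all genes called and 11.5% lower. The median log2 FC of the list was -0.04 and -0.997. After LPS the iron-chelating protein LCN2 rose (log2 FC 2.96, adjusted p = 0.00596), as did the protease inhibitor PI3 (1.89, adjusted p = 0.00311). The cathelicidin CAMP, another granule peptide, fell (-1.92, adjusted p = 0.00416). LCN2 had 5.22, 4.24, 1.88 and 0.67 after LPS in rabbits 1, 2, 4 and 5 and -0.31 to 0.53 in mock cells, with rabbits 1 and 2 above rabbits 4 and 5.

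After PMA-Ionomycin at T24 the largest falls of this list were those of the rabbit alpha-defensins NP-4 (log2 FC -7.79), NP-5 (-7.60) and NP-3a (-7.29), microbicidal peptides of myeloid cells, with adjusted p of 3.48e-09 or less. NP-4 and NP-5 cannot be told apart here, since their probes share a run of 28 bases and their levels had a Pearson r of 0.999. CAMP fell by 4.03 (adjusted p = 2.94e-09) and LTF, the iron-binding lactoferrin, by 1.07 (adjusted p = 3.59e-05). At T4, PMA-Ionomycin lowered RNASE6 (-2.74), CAMP (-1.30) and the cytotoxic protein PRF1 (-0.76), with 1 gene of the list higher, and none was called after LPS.

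Receptors that bind these proteins or LPS were compared next. Of 19 measured genes, 2 of them never above background, none was called after LPS at T24, beside 1.22% of all genes. After PMA-Ionomycin at T24, 11 were lower, beside 11.5% of all genes, and none was higher. The formyl peptide receptors FPR1 (log2 FC -4.96, adjusted p = 2.48e-06) and FPR2 (-3.28, adjusted p = 0.00247) and the LPS co-receptor CD14 (-3.27, adjusted p = 3.17e-08) fell most. TLR4 (-0.21, adjusted p = 0.849) and AGER (0.09, adjusted p = 0.833), both receptors of S100 proteins, were not called in any of the 4 comparisons. At T4, LPS lowered CD14 (-1.55, adjusted p = 0.0371) and the adaptor MYD88 (-1.19, adjusted p = 0.0213), beside 1.03% of all genes called. PMA-Ionomycin lowered 6 genes there, FPR1 (-3.83), CD14 (-3.01) and TLR2 (-2.24) most, beside 9.36% of all genes lower.

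A further list held 22 measured cytokines and transcription factors, picked as possible regulators of these genes. Their action on the 6 genes was not tested. After LPS at T24, 6 rose and 1 fell, beside 0.633% and 0.584% of all genes, with a median log2 FC of 0.77. The largest rises were those of IL6 (log2 FC 4.73), a cytokine that induces acute phase genes, IL1B (4.16) and IL10 (4.12). After PMA-Ionomycin at T4, 8 rose and 3 fell, beside 22.9% of all genes called, led by CSF2 (7.88), IL10 (5.13) and IL17A (4.35). At T24, 5 rose and 7 fell, beside 33.7% of all genes called. CSF2 (5.92) and TNF (2.59) were higher there and IL1B (-3.40) was lower. SPI1, a transcription factor of myeloid cells, was the 1 gene of the list lowered by LPS at T4 (-1.13, adjusted p = 0.0252).

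In unstimulated cells the members changed in different directions between rabbits. From T4 to T24 in mock cells, S100A8 rose by 2.13 and 1.25 on the log2 scale in rabbits 1 and 2 and fell by 0.63 and 1.86 in rabbits 4 and 5. S100A9 moved the same way in each rabbit, as did SAA1 (0.12, 0.95, -0.70 and -4.15). The mean changes were 0.22, -0.40 and -0.94, and 0 of 6 members were called by limma (0 also at an unadjusted p under 0.05), beside 12.6% of all genes.

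The SD of S100A8 was accordingly 2.15 in mock cells at T24, against 0.42 in mock cells at T4 and 0.63 after LPS at T24. For SAA1 it was 2.70, 0.79 and 0.78. After LPS the rabbits lay closer together, with rabbit 5 still the lowest for S100A8, MRP-8 and S100A9. FPR1 (7.38, 6.99, 4.94 and 2.75) and IL1B (8.16, 6.82, 4.26 and 2.54) had the same order of rabbits as S100A8 in mock cells at T24, and SAA1 differed from it in that rabbit 2 was above rabbit 1. CD14 had 9.20, 8.57, 9.28 and 7.93, and the mean log2 level of 15 monocyte markers was 3.85, 4.14, 4.15 and 3.47. Their part in the spread was not tested. In mock cells at T4 both S100A12 (9.10, 8.06, 5.48 and 4.85) and S100A8 (8.57, 7.84, 7.73 and 7.70) ranked from rabbit 1 to rabbit 5, as at T24.

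**Figure D4:**
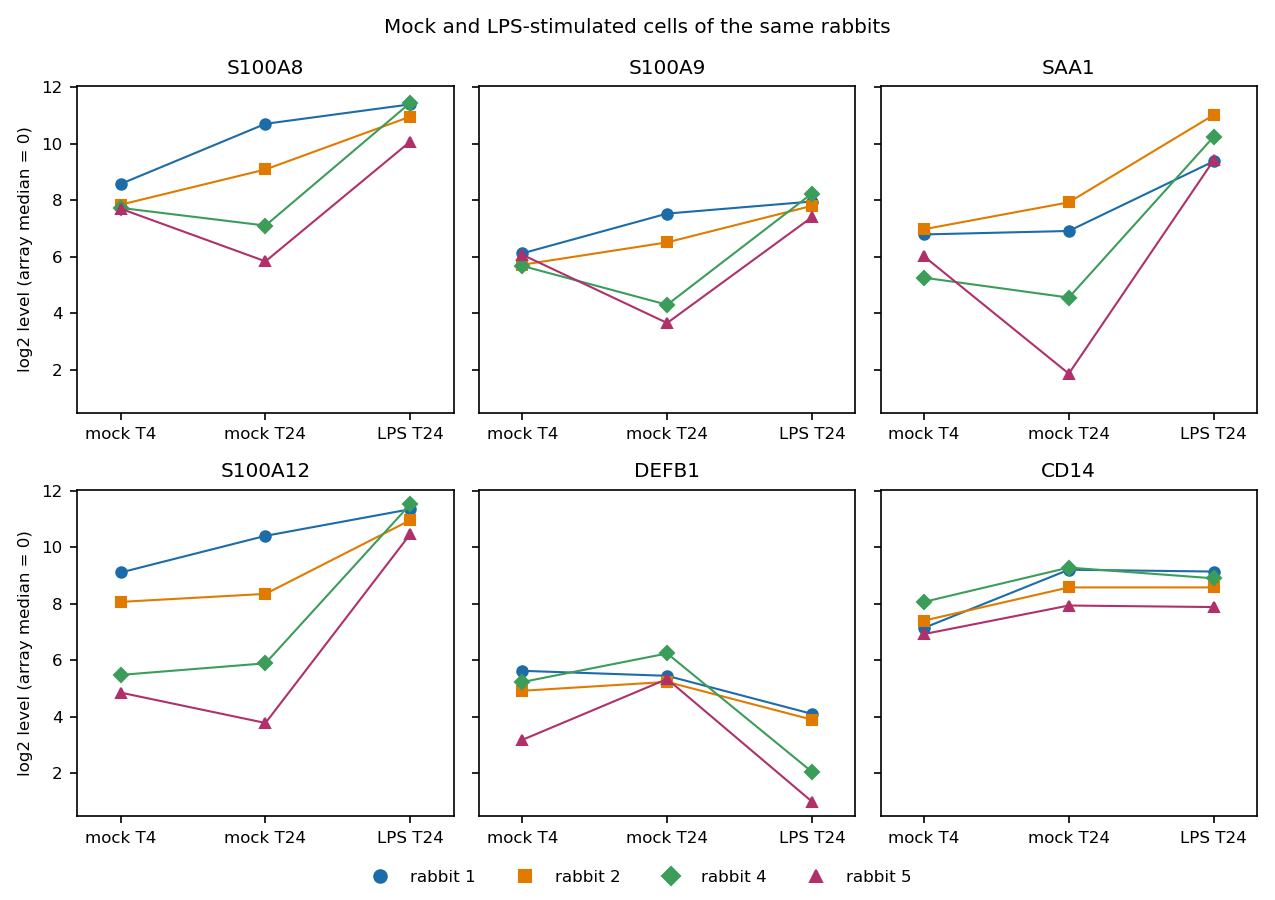
Log2 level relative to the array median (vertical axis) of 4 members, S100A12 and CD14 in mock cells at T4 and T24 and after LPS at T24. Lines join cultures of the same rabbit. S100A8 ranges over 5.83 to 10.702 in mock cells at T24 and over 10.07 to 11.45 after LPS.

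Within stimulated cells the change with time was clear. After LPS, S100A8 (log2 FC T24 against T4 4.05), MRP-8 (4.28), S100A9 (2.56) and SAA1 (3.32) were higher at T24, with adjusted p of 0.0032 or less, and DEFB1 was lower (-1.66, adjusted p = 0.0287). This is 5 of 6 members, beside 37.6% of all genes (16.7% higher and 20.9% lower). The DEFB1 call was lost without rabbit 2 (adjusted p = 0.0664) or rabbit 4 (0.181). After PMA-Ionomycin 6 of 6 were lower at T24, beside 33.7% of all genes (13.4% lower), with log2 FC from -4.92 (DEFB1) to -2.05 (BPI). For SAA1 (-2.80, adjusted p = 0.00875) the call was lost without rabbit 1 (adjusted p = 0.0747) or rabbit 4 (0.0634).

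Whether the effect of a stimulus differed between the times was tested by the interaction. For LPS 0 of 6 members passed by limma, beside 1.95% of all genes, although 5 had an unadjusted p under 0.05. The adjusted p was 0.0544 for SAA1, 0.0578 for MRP-8, 0.0583 for S100A9, 0.0799 for S100A8, 0.112 for DEFB1 and 0.707 for BPI. With the rabbit as a block the first 5 of these passed (0.0073 to 0.022), beside 5.76% of all genes. The S100A9 mRNA-strand probe alone passed without the block (difference of log2 FC 5.19, adjusted p = 0.0265). For PMA-Ionomycin 4 of 6 passed, beside 22.6% of all genes and 8.17% in this direction, each with a lower log2 FC at T24 than at T4. They were DEFB1 (difference of log2 FC -5.75, adjusted p = 1.08e-05), S100A8 (-4.74, adjusted p = 0.00324), MRP-8 (-4.45, adjusted p = 0.0042) and BPI (-2.08, adjusted p = 0.0319). Without rabbit 5 the difference was -5.38 for S100A8 and -5.12 for MRP-8, and without rabbit 1 it was -3.84 for MRP-8. The BPI call held in 10 of 18 alternatives. It was lost, among others, without rabbit 1 (adjusted p = 0.136), rabbit 2 (0.0689) or rabbit 4 (0.124), with quantile normalization alone (0.0503) and with normexp before it (0.0678), and that of MRP-8 without rabbit 2 (0.0521). S100A9 (-2.10, adjusted p = 0.0683) passed with the rabbit as a block (0.0372), where 26.1% of all genes were called, and without rabbit 5 (0.0196), and its mRNA-strand probe alone passed as well (-4.18, adjusted p = 0.0122). SAA1 had -1.86 (adjusted p = 0.315), and 0.0148 as the adjusted p without rabbit 5.

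PMA-Ionomycin and LPS were also set against each other. At T24 S100A8 was 971-fold lower after PMA-Ionomycin than after LPS (log2 FC -9.92, adjusted p = 7.7e-10, with -10.51 without rabbit 1 and -9.33 without rabbit 4), SAA1 524-fold (-9.03, adjusted p = 3.65e-09) and S100A9 48.6-fold (-5.60, adjusted p = 2.78e-08). The S100A9 mRNA-strand probe alone was 885-fold lower (-9.79, adjusted p = 1.98e-09). After PMA-Ionomycin at T24, 2 of the 7 S100A8 probes were well above background on only 2 or 3 of 4 arrays. With the background-subtracted signal the folds were 1989 for S100A8 and 854 for SAA1. DEFB1 was 6.69-fold lower (adjusted p = 0.000443, and 13.5-fold with that signal), and BPI differed by -0.58 (adjusted p = 0.443), with 4 of 4 rabbits lower. This makes 5 of 6 members called, beside 36.2% of all genes (12.5% lower), and BPI passed without rabbit 5 (adjusted p = 0.0239). At T4 1 of 6 was called, beside 26.8% (9.06% lower), namely SAA1 (log2 FC -2.91, adjusted p = 0.0084), which was lost without rabbit 4 (0.0535). BPI (0.93) passed there with the rabbit as a block (adjusted p = 0.0111), beside 29.8% of all genes, and without rabbit 5 (0.00264). These comparisons share arrays with those against mock.

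Ordered by mean level, S100A8 and MRP-8 ran from LPS T24 through mock T24, mock T4, LPS T4 and PMA-Ionomycin T4 to PMA-Ionomycin T24. Neighbours in this order overlapped except for the last step. For S100A9 and SAA1 the first step, from LPS T24 to mock T4 and to LPS T4, was also free of overlap. DEFB1 ran from mock T24, PMA-Ionomycin T4, mock T4 and LPS T4 to LPS T24 and PMA-Ionomycin T24, where only the last step was free of overlap, and neighbours in the order of BPI all overlapped.

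Most monocyte markers were lower after PMA-Ionomycin at T24, where the members were lower too. None of them was higher after LPS at T24, where S100A9 and SAA1 rose. After PMA-Ionomycin at T24, 13 of 15 measured monocyte markers were lower, beside 11.5% of all genes, and none was higher. Their mean log2 level was 1.45 to 1.78, against 3.47 to 4.15 in mock cells. At T4, 6 of 15 were lower, beside 9.36% of all genes, with 1.78 to 2.31 against 2.22 to 3.16. After LPS, 4 of 15 were lower at T4 (1.70 to 2.20), beside 1.03% of all genes called. At T24, 2 of 15 were lower (2.74 to 3.88), beside 0.584%, and none was higher at either time. Of the 8 neutrophil markers measured, LCN2 was higher and CAMP and MPO were lower after LPS at T24, and ARG1 was higher and CAMP, LTF and MPO were lower after PMA-Ionomycin at T24. Their mean level was 1.47 to 1.54 after PMA-Ionomycin, 2.04 to 2.60 after LPS and 1.98 to 2.67 in mock cells at T24. The part of monocytes and neutrophils in the changes of the 6 genes was not tested.

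Markers of lymphocytes were set beside these. At T24 the 10 T cell markers had mean levels of 0.22 to 0.69 in mock cells, 0.13 to 0.57 after LPS and 0.39 to 0.54 after PMA-Ionomycin, and the 7 B cell markers 3.56 to 5.16, 3.58 to 4.91 and 3.22 to 3.52. None of these markers was called after LPS at either time, beside 1.03% (T4) and 1.22% (T24) of all genes. After PMA-Ionomycin at T24, 1 T cell marker was higher and 2 were lower, near the 33.7% of all genes called. Of the B cell markers, 1 was higher and 3 were lower. Of 5 platelet markers, 4 were lower at T4 and 2 higher at T24 after PMA-Ionomycin, beside 22.9% and 33.7% of all genes called. None of these 5 was called after LPS.

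Likeness over the 24 arrays was ranked among 6567 genes with a symbol and signal above background, which leaves out the 6 members and S100A12, listed without a symbol. FPR1 came first for S100A8 (Pearson r 0.934), S100A9 (0.923) and SAA1 (0.936). It was followed by PDE4B (0.91) and PAQR5 (0.901) for S100A8, by SIRPB2 (0.902) and NIBAN1 (0.901) for S100A9 and by SIRPB2 (0.911) and MEFV (0.907) for SAA1. For MRP-8 they were FPR1 (0.938), PDE4B (0.913) and PAQR5 (0.91). DEFB1 was most like CFP (0.88), AIF1 (0.874) and KLHL24 (0.868), and BPI was most like KLF12 (0.822), UGT1-6 (0.795) and RARRES2 (0.79). Among the members, S100A8 had r of 0.965 with S100A9 and 0.897 with SAA1, and of 0.513 with DEFB1 and 0.196 with BPI. S100A12 had r of 0.916 with S100A8, 0.923 with MRP-8, 0.887 with S100A9 and 0.909 with SAA1. These arrays share 4 rabbits and 6 groups, and the values are a description.

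The arrays lay on 3 slides of 8, each with all 6 groups but with different rabbits side by side. Within slides, the 29 differences called among the members had the same sign in 87 of 87 slide values. These differences were called on the same arrays, and S100A8 counts under both of its names. The count is therefore a description and cannot show the absence of a slide effect. For the uncalled S100A8 after LPS at T24 the values were 4.93, -0.19 and 2.36. On the slide with -0.19 the mock array was that of rabbit 1. With the slide as a block S100A9 after LPS at T24 (adjusted p = 0.0514) and S100A8 after PMA-Ionomycin at T4 (0.0541) missed the threshold, as did the PMA-Ionomycin interaction of BPI (0.0612). The share of spots well above background was 51.4 to 62.3% on the 24 arrays.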

How the data were processed

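PBMC cultures of 4 rabbits were measured on 24 one-colour arrays. The authors deposited, per the file headers, the Feature Extraction 10.7.3.1 output of each array, whose median, mean and background signals are spot intensities without normalization, and whose processed signal is a background-subtracted intensity. The authors deposited log2 values as well. Checked against the scanner output, each is the spot's log2 median signal less a constant per array. The deposited values had array medians of -1.11 to -0.81. Following the methods of the study, log2 median signals were centred on the array median of non-control spots. Outlier spots (280 to 370 per array) were left out, spots were averaged per probe and probes per gene, and lmFit and eBayes of limma 3.58.1 (R 4.3.3) gave 1 mean per group over all 24 arrays, with p-values adjusted by Benjamini-Hochberg over all genes. Tables and figures were made in Python 3.11.15 with pandas 2.3.3, numpy 2.4.6 and matplotlib 3.10.9. The steps were tested on simulated data.

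Probes were named by RefSeq accession or gene number through the RefSeq gene table of mOryCun1.1, else by the study's immune gene list, which names DEFB1, or the name in the files. S100A12, NP-3a, NP-4 and NP-5 were identified by the descriptions in the files and, for NP-5, a synonym in that table. Other genes named are those of the chosen lists measured here, namely the 3 largest called changes per list and comparison, the genes S100A12, LBP, CAMP, LYZ, LTF, SAA3, TLR4, AGER and CD14 where measured, and the 3 genes most like each member over the arrays. A few marker genes and second-rank values were named after they were seen. The 6 genes and the lists were chosen with earlier results of these data known.

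Rabbit numbers mark the same animals, which pairs the samples. After group means were taken off, pairs of arrays from 1 rabbit correlated at a median of 0.228, and those from unlike rabbits at -0.0746. The methods used no pairing, so the rabbit entered as a block only in an alternative fit. Other settings tried were quantile normalization, normexp (offset 50) followed by quantiles, the processed signal divided by its 75th percentile, the deposited log2 table, dim probes omitted, outlier spots retained, a fit to the compared arrays alone, a slide term, array weights, robust eBayes with a trend, single probes, S100A8 and MRP-8 as 1 gene, a required fold of 2 and leaving out each rabbit. The S100A9 mRNA-strand probe alone was chosen after seeing the data. The number of arrays limits the precision.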

Additional observations from a re-analysis of the deposited data

Results flagged for a closer look

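In mock cells at T4 the S100A8 level of rabbit 1 (8.57) stood apart from the next highest (7.84), with a gap of 0.837 of the range of the 4 rabbits, above Dixon's critical value for 4 samples. It was the 1 case among 36 groups of 4 searched, where chance gives about 1 in 20.

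The effect of PMA-Ionomycin differed between T4 and T24, by the interaction test of limma, for S100A8 (difference of log2 FC -4.74), MRP-8 (-4.45), DEFB1 (-5.75) and BPI (-2.08). In each the log2 FC was lower at T24 than at T4, in 4 of 4 rabbits. At T4 DEFB1 had 0.20 (adjusted p = 0.909) and BPI -0.05 (adjusted p = 0.979). S100A8 and MRP-8 are readings of the same transcript. The BPI call held in 10 of 18 alternatives.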

How the results depend on the processing

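Of 1199 alternative values of the 6 genes over 11 comparisons, 1084 kept their direction and their side of the threshold, 51 lost a call, 46 gained one and 18 changed sign, none of the last with a call. In LPS against mock at T24, 3 of 6 genes were called, with 0 when only its 8 arrays were fitted, 0 when a fold of 2 was required, 6 with the rabbit as a block, and 0 to 5 when a rabbit was left out (0 without rabbit 4, 1 without rabbit 2 and 5 without rabbit 1). At T4 the block gave 1 in place of 0. In PMA-Ionomycin against mock at T4, the required fold left 0 of 3, and leaving out a rabbit gave 0 to 2 (0 without rabbit 2 or rabbit 4). The LPS by time interaction called 0 genes, and 5 with the rabbit as a block, 1 with quantile normalization, 3 each with dim probes left out, array weights and single probes, and 0 to 3 without a rabbit. The PMA-Ionomycin interaction called 4, and 2 with the required fold, and 2 to 6 without a rabbit (2 without rabbit 2). T24 against T4 with the required fold left 2 of 5 after LPS and 3 of 6 after PMA-Ionomycin. PMA-Ionomycin against LPS at T4 called 1, and 2 with the block or array weights, 0 with the required fold, and 0 to 2 without a rabbit. The block changed no other count by over 1.5 times.

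Signs turned in comparisons without a call. When a rabbit was left out, T24 against T4 in mock cells ranged over -0.41 to 0.92 for S100A8 (-0.41 without rabbit 1, -0.12 without rabbit 2), -0.49 to 0.95 for MRP-8 (-0.49 and -0.11), -1.0 to 0.28 for S100A9, -1.58 to 0.12 for SAA1 and -0.17 to 0.23 for BPI, the last 3 turning without rabbit 5. Array weights gave 0.13 for S100A9, 0.03 for SAA1 and -0.24 for BPI, and BPI also had -0.076 with quantile normalization, -0.088 with normexp, -0.12 with the processed signal and -0.07 with a slide term. For PMA-Ionomycin against mock at T4, array weights gave -0.11 for DEFB1 and 0.26 for BPI, and BPI ranged over -0.22 to 0.12 when a rabbit was left out (0.12 without rabbit 2, 0.004 without rabbit 5). The cause was not tested. With the processed signal all genes had a median log2 FC of -0.41 in PMA-Ionomycin against LPS at T4, against -0.04, and -0.46 in T24 against T4 after LPS, against -0.19. With the background-subtracted signal the falls after PMA-Ionomycin at T24 were 287-fold for S100A8, 340-fold for MRP-8 and 104-fold for DEFB1, against 141, 115 and 46.7. The MRP-8 probes and 2 of the 7 S100A8 probes were well above background on only 2 or 3 of 4 arrays there. The sizes of the falls of S100A8 and MRP-8 are therefore uncertain.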
